A study of Mus musculus with 12 samples.

Results

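Phosphatidylcholine is the main phospholipid of liver membranes, bile and the surface of secreted lipoproteins, and 10 genes of its synthesis, acyl exchange and transport, and of the methyl-group supply that feeds it, are described here in mouse liver. They were taken by name from the array's annotation (Pemt, Chka, Pcyt1a, Pcyt2, Lpcat3, Pctp, Mat1a, Gnmt, Bhmt and Chdh), 10 of the 19935 genes that had a probe set of their own. Each was read through its probe set of highest mean. All 10 were above the 40th percentile of their array on every array, so none was lost to the filter on dim probe sets.

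Hepatocytes make phosphatidylcholine by a pair of routes. The CDP-choline route builds it from dietary or recycled choline, whereas the Pemt route methylates phosphatidylethanolamine with S-adenosylmethionine, the methyl donor that Mat1a's product makes from methionine. Gnmt spends surplus S-adenosylmethionine on glycine, and Chdh and Bhmt pass methyl groups from choline back to homocysteine, which closes the methionine cycle.

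The animals were C57BL/6 mice 3 months old, ovariectomised in every group, so that all lacked ovarian oestrogen. ERKO mice lack oestrogen receptor alpha, MOER mice carry the receptor at the membrane only, and wild-type mice have the intact receptor. In each genotype, after 1 week of recovery, livers were taken from animals injected with PPT, an agonist selective for that receptor, at 100 µg a day for 3 days, or with 0.1 mL of oil. Each of the 12 arrays held the pooled RNA of 3 animals, with 2 arrays for each of 6 groups, and the labels do not show that the 2 pools of a group came from separate animals, so p-values measure the spread between these arrays only. The alleles behind ERKO and MOER, and the cells in which the MOER receptor is made, are not given in the sources used here.

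Array medians ran from 77.5 to 85.26 intensity units. The arrays of a group correlated across probe sets at r of 0.994 to 0.996 in 5 groups and 0.981 in ERKO oil, where 162 probe sets differed at least 2-fold between the arrays. Esr1, the gene of the receptor, read 145 and 162 in ERKO PPT and 126 and 118 in ERKO oil, 117 and 131 in MOER PPT and 126 and 128 in MOER oil, against 309 and 325 in wild-type PPT and 347 and 365 in wild-type oil. Its probe set was lower in both mutants than in wild type, and under oil MOER and ERKO were not separated (log2 difference 0.05 ± 0.093, adjusted p = 0.816). With PPT the ERKO arrays lay above the MOER arrays, which was not tested directly, and within ERKO Esr1 was called higher with PPT (0.30 ± 0.093, adjusted p = 0.0496). The summed intensity of 5 hepatocyte markers, albumin among them, was 50121 to 66390.1 over the 12 arrays, with both ends of that range in ERKO oil. Markers of other tissues stood apart in 2 groups. The sum of 9 pancreatic acinar markers was 35997 to 46055 in MOER oil and 315 to 507 elsewhere, with 0 of the 9 at 0 on any array. The sum of 4 skeletal muscle markers was 6651 to 6989 in ERKO PPT and 296.5 to 435 elsewhere, and that of 4 squamous epithelial markers 2960.2 to 3157 in ERKO PPT and 122 to 223 elsewhere.

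Values below are linear intensities as deposited. Differences are on the log2(intensity + 16) scale with the standard error of a limma fit over all 12 arrays, folds are computed on that scale, and a gene was called at a Benjamini-Hochberg adjusted p under 0.05 over 19119 probe sets. Intensities of different probe sets are not comparable with each other, so each gene was compared only with itself across groups.

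**Figure D1:**
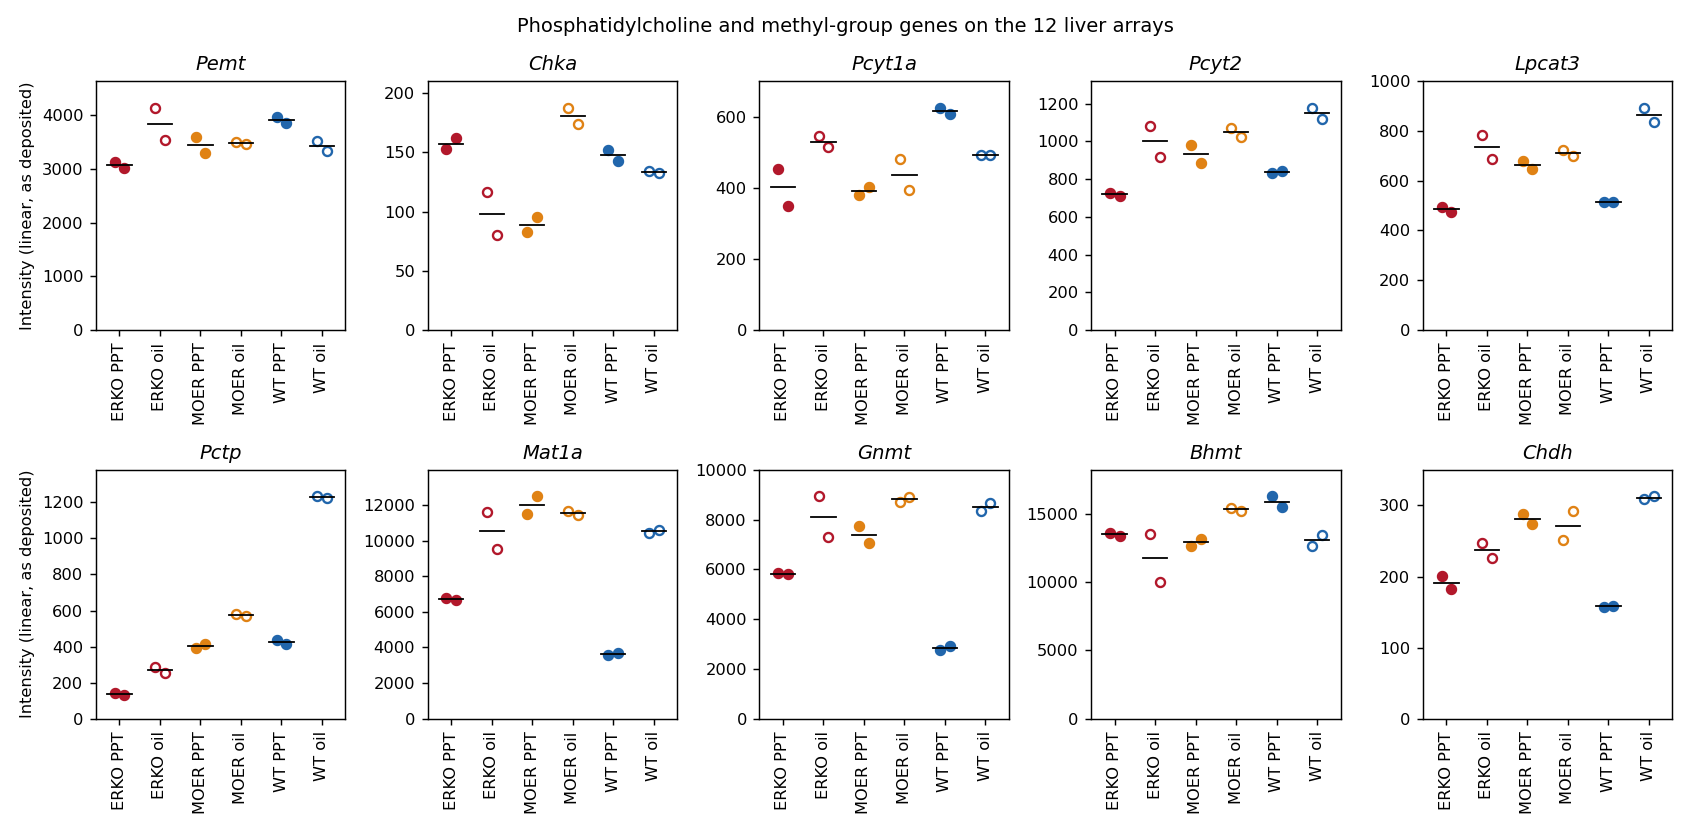
Linear intensity of each of the 10 genes on the 12 arrays (y axis from 0, one panel a gene). Points are single arrays, filled for PPT and open for oil, the colours mark ERKO, MOER and wild type (WT), and the bars are means of 2 arrays. Pctp was highest in wild-type oil (1233 and 1225) and lowest in ERKO PPT (141 and 133), and Mat1a and Gnmt were lowest in wild-type PPT.

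The sequences just before the transcription start are shown for 3 genes with different patterns of response: Pctp, which fell with PPT in every genotype, Gnmt, which had its largest fall in wild type, and Chka, which moved in opposite directions in MOER and ERKO. They are the 250 bases upstream of a RefSeq start (GRCm38.p6), 5′ to 3′ on the gene's strand. Capitals mark matches, on either strand, to the oestrogen receptor half-site GGTCA, the oestrogen response element GGTCANNNTGACC, a sterol response element TCACNCCAC and the GC box GGGCGG.
Pctp (chr11:90002895-90003144, minus strand): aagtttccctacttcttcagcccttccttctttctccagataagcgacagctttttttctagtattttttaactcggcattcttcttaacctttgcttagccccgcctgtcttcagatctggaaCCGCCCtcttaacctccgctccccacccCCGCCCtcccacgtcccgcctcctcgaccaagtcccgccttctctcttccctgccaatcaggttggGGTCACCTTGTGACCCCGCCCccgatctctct
Gnmt (chr17:46729166-46729415, minus strand): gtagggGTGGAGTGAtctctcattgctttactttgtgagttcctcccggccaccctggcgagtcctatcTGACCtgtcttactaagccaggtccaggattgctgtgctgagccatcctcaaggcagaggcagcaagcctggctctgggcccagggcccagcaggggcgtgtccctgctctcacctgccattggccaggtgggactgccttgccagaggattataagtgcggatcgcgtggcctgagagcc
Chka (chr19:3851523-3851772, plus strand): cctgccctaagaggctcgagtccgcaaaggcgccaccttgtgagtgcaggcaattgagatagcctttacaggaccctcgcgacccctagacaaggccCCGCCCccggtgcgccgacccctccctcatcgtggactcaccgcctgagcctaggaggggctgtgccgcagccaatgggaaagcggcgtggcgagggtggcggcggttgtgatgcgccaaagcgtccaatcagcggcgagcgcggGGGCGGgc
The Pctp window held half-sites beginning at -32 and -22 relative to the start, facing each other with 5 bases between them instead of the 3 of a classical element, and the second abuts a GC box at -17. Facing half-sites at that wider spacing were found in 0.0213% of 32851 promoter windows, a half-site in 35.2% and the GC box in 32.7%. The 5-base spacing is the one the Pctp window held, and no other wider spacing was counted. Its share thus does not show how unusual the Pctp match is. The Gnmt window held 1 half-site at -181 and 1 match to the sterol response element at -244, a motif present in 1.05% of windows. Chka had GC boxes at -153 and -8 and no half-site. The 8 members with an entry (Pemt, Chka, Pcyt1a, Bhmt, Lpcat3, Pctp, Gnmt and Chdh) had 13 windows between them. A member was counted if any of its windows matched, so these counts are not comparable with the shares of single windows. Among the 8 members the full oestrogen response element matched in 0, and it was present in 0.0639% of all windows. A half-site was found in 5 of them: Pctp, Gnmt, Pemt, Pcyt1a and Bhmt. Bhmt held 6, and its brightest probe set had no PPT response called in any genotype. Chdh and Lpcat3, which fell in wild type, had no half-site. A link between half-sites and response was not tested. Such matches describe letters in these windows only.

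In wild-type livers PPT lowered 6 of the 10 genes and raised 0, where 31.0% of all probe sets tested were called, 14.8% higher and 16.2% lower. The methyl-group enzymes Mat1a and Gnmt and the transfer protein gene Pctp fell furthest, each by more than 2-fold. Chdh, Lpcat3 and Pcyt2 fell by less. Pemt, Pcyt1a, Chka and Bhmt had estimates above 0 that did not pass the test. The median of the 10 was -0.59, beside 0.02 for all probe sets tested.

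Mat1a, which encodes the S-adenosylmethionine synthetase of adult hepatocytes, read 3589 and 3704 in wild-type PPT and 10421 and 10597 in wild-type oil. The arrays of the treatments lay far apart, 2.87-fold lower with PPT (-1.52 ± 0.10, adjusted p = 1.32e-06). Gnmt, glycine N-methyltransferase, the enzyme that disposes of excess S-adenosylmethionine, read 2773 and 2926 with PPT and 8354 and 8688 with oil. That fall was 2.98-fold (-1.58 ± 0.11, adjusted p = 1.23e-06), so the maker and a major consumer of S-adenosylmethionine moved by about the same factor. Chdh, the mitochondrial choline dehydrogenase that starts the oxidation of choline to betaine, read 157 and 159 with PPT and 309 and 313 with oil (1.88-fold lower, -0.91 ± 0.099, adjusted p = 4.31e-05). Bhmt, which uses betaine to remethylate homocysteine, read 16311 and 15557 with PPT and 12703 and 13506 with oil. Its arrays did not overlap, but the difference of 0.28 ± 0.13 did not pass the test (adjusted p = 0.118).

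On the phospholipid side, Pctp, which encodes a cytosolic protein that carries phosphatidylcholine between membranes, read 435 and 415 in wild-type PPT and 1233 and 1225 in wild-type oil (2.82-fold lower, -1.50 ± 0.090, adjusted p = 5.91e-07). Lpcat3, the acyltransferase that places polyunsaturated chains into lysophosphatidylcholine, read 515 and 516 with PPT and 894 and 838 with oil (-0.73 ± 0.092, adjusted p = 1.27e-04). Pcyt2, the enzyme that makes CDP-ethanolamine in the ethanolamine branch, read 833 and 842 with PPT and 1179 and 1119 with oil (-0.45 ± 0.100, adjusted p = 0.00565). Its call was lost without wild-type oil replicate 1 (adjusted p = 0.053). The other 3 members of the phospholipid side, Pemt, Pcyt1a and Chka, were not called. Pemt, the phosphatidylethanolamine methyltransferase, read 3976 and 3858 with PPT and 3514 and 3334 with oil (0.19, 95% interval -0.02 to 0.41, adjusted p = 0.171). Pcyt1a, the rate-limiting enzyme of the choline branch, which makes CDP-choline, read 627 and 611 with PPT and 494 and 495 with oil (0.31, 95% interval 0.03 to 0.60, adjusted p = 0.0947). Chka, choline kinase alpha, read 152 and 143 with PPT and 135 and 133 with oil (0.13, 95% interval -0.18 to 0.43, adjusted p = 0.53).

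Markers of liver zones and of other cells moved in the same comparison. The sum of 6 pericentral markers was 12078 to 12284 in wild-type PPT and 25543 to 25851 in wild-type oil, with 0 higher and 5 lower of 6. That of 4 periportal markers was 10972 to 11087 and 19649 to 20440.1 in the same order, with 1 higher and 3 lower of 4. The sum of 6 Kupffer cell markers was 8195 to 8228 with PPT and 6537 to 6637 with oil, with 4 higher and 1 lower of 6, and none of these markers was at 0 on any array. The sum of 6 sinusoidal endothelial markers was 3394 to 3435 with PPT and 5905 to 6166 with oil, with 1 higher and 3 lower. Most of that sum was Clec4g, at 1597 and 1574 with PPT and 4014 and 4240 with oil. Lyve1 read 427 and 416 with PPT and 247 and 229 with oil, and the median log2 difference of the 6 was -0.09. The sum of the neutrophil markers was 410 to 435 with PPT and 147 to 188 with oil, with 3 of the 4 tested higher and 0 lower. The sum of 5 hepatocyte markers was 52798 to 56167 with PPT and 60456 to 60716 with oil, with 1 higher and 1 lower. That of 6 stellate cell and fibroblast markers was 5288 to 5302 and 6240 to 6273 in the same order, with 0 higher and 2 lower. The part of these shifts in the fall of the 6 genes was not tested, and in whole liver fewer cells of a type and less RNA per cell cannot be told apart.

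**Figure D2:**
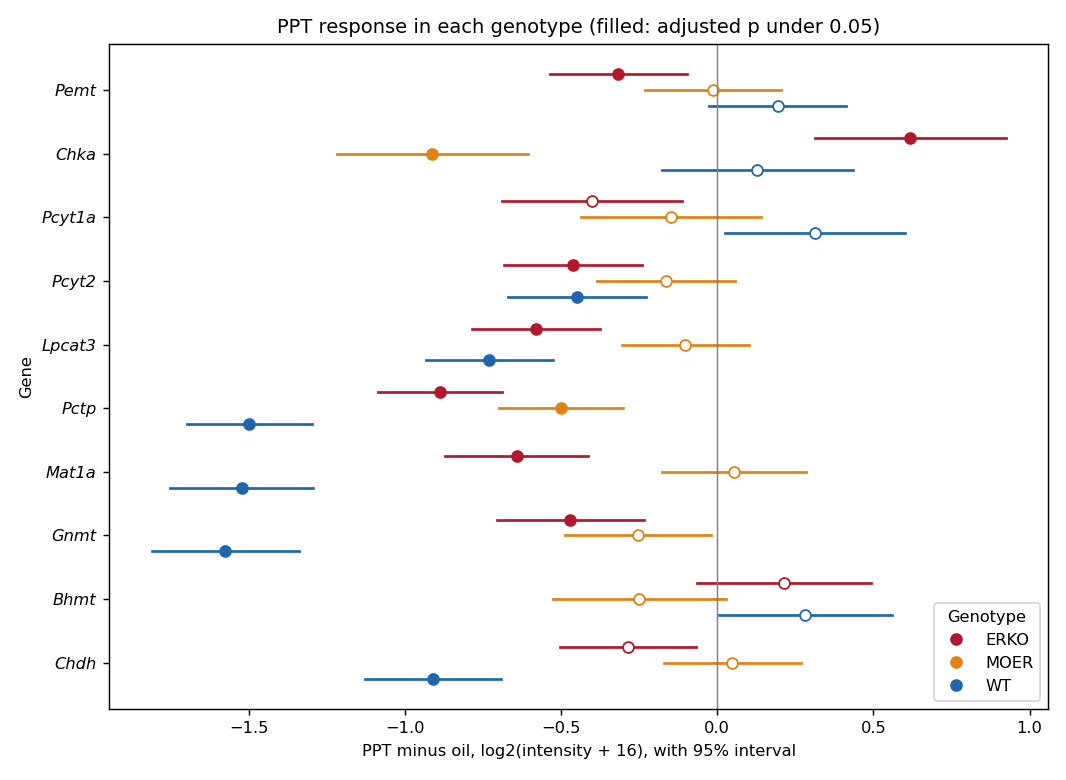
PPT minus oil for each gene (y axis) on the log2(intensity + 16) scale (x axis), in ERKO, MOER and wild type (WT). Points are estimates over 2 arrays a group, lines are 95% intervals, and filled points passed an adjusted p of 0.05. Wild type has 6 filled points below 0, MOER 2 below 0, and ERKO 6 below and 1 above.

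In MOER livers PPT lowered 2 of the 10 genes, Chka and Pctp, and raised 0, where 4.66% of probe sets were called, 2.35% higher and 2.31% lower. The median of the 10 was -0.16 beside 0.00063 for all probe sets. Pctp read 391 and 413 in MOER PPT and 582 and 569 in MOER oil (1.41-fold lower, -0.50 ± 0.090, adjusted p = 0.00863). Leaving out MOER oil replicate 1, MOER oil replicate 2 or MOER PPT replicate 1 ended that call (adjusted p = 0.0869, 0.0619 and 0.0881). Chka read 82.4 and 95.2 in MOER PPT and 188 and 174 in MOER oil (1.88-fold lower, -0.91 ± 0.14, adjusted p = 0.00278). All 9 pancreatic acinar markers were lower in the same comparison, with summed intensity 431 to 447 in MOER PPT and 35997 to 46055 in MOER oil. Kupffer cell markers summed to 8580 to 8817 in MOER PPT and 7915 to 7918 in MOER oil, with 3 higher and 1 lower of 6. Pericentral markers were 1 higher and 2 lower of 6, and periportal markers 1 higher and 1 lower of 4. Every MOER response uses the MOER oil arrays, and the part of the acinar or other markers in the difference of Chka, Pctp or any other gene was not tested.

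The methyl-group enzymes that fell in wild type had intervals near 0 in MOER. Mat1a read 11498 and 12478 with PPT and 11653 and 11428 with oil, so the treatments overlapped (0.05, 95% interval -0.18 to 0.28). Chdh read 288 and 274 with PPT and 251 and 293 with oil, again overlapping (0.05, 95% interval -0.17 to 0.27). Gnmt read 7734 and 7059.7 with PPT and 8719.5 and 8907 with oil, a shift of -0.25 whose 95% interval of -0.49 to -0.02 did not survive adjustment (adjusted p = 0.283). Lpcat3 read 679 and 647 with PPT and 724 and 701 with oil (-0.10, 95% interval -0.31 to 0.10). The 4 remaining genes were not called either. Pcyt2 read 982 and 886 with PPT and 1072 and 1024 with oil (-0.16, adjusted p = 0.521). Bhmt read 12661 and 13216 with PPT and 15490.3 and 15270.2 with oil (-0.25, adjusted p = 0.406). The treatments did not overlap for these 2 genes, nor for Gnmt and Lpcat3 above, whereas they did for the next 2. With 2 arrays a group such a gap is weak evidence by itself, and none of these genes was called. The share of all probe sets with such a gap was not counted. Pcyt1a read 380.4 and 403 with PPT and 481 and 393 with oil (-0.15, adjusted p = 0.709). Pemt read 3603 and 3303 with PPT and 3505 and 3460.02 with oil (-0.01, adjusted p = 0.979).

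In ERKO livers, which lack the receptor, PPT lowered 6 of the 10 genes and raised 1, where 17.9% of probe sets were called, 8.46% lower and 9.48% higher. The median of the 10 was -0.43 beside 0.03 for all probe sets. Pctp read 141 and 133 in ERKO PPT and 284 and 251 in ERKO oil (1.85-fold lower, -0.89 ± 0.090, adjusted p = 1.13e-04). Mat1a read 6779.8 and 6681 with PPT and 11610.3 and 9514 with oil (-0.64 ± 0.10, adjusted p = 0.00239). The oil arrays of ERKO differed from each other for Mat1a more than those of any other group, yet both stood above both PPT arrays. Lpcat3 read 493 and 476 with PPT and 782 and 686 with oil (-0.58 ± 0.092, adjusted p = 0.00211).

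Gnmt read 5852 and 5808 in ERKO PPT and 8936 and 7310.3 in ERKO oil (-0.47 ± 0.11, adjusted p = 0.0134), and Pcyt2 read 726 and 711 with PPT and 1080.4 and 919 with oil (-0.46 ± 0.100, adjusted p = 0.0109). Pemt, at 3128 and 3008 with PPT and 4140.2 and 3532 with oil, was called at the edge of the threshold (-0.32 ± 0.099, adjusted p = 0.0493). Chka was the member that rose, with 153 and 162 in ERKO PPT and 117 and 79.8 in ERKO oil (1.53-fold, 0.62 ± 0.14, adjusted p = 0.0128). Pcyt1a read 455 and 349 with PPT and 548 and 515 with oil (-0.40, adjusted p = 0.0574), and Chdh 200.4 and 182 with PPT and 247 and 226 with oil (-0.29, adjusted p = 0.0709). Bhmt read 13638 and 13427 with PPT and 13549.7 and 10041 with oil, which overlap (0.21, adjusted p = 0.273).

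These ERKO calls rest on few arrays. Without ERKO PPT replicate 2 the count was 3 of 10 (Pctp, Mat1a and Lpcat3), and with the ERKO arrays fitted alone it was 1 of 10. Over all probe sets those fits called 1200 and 576, against 3430 with all arrays. Pemt lost its call in 11 of the 12 fits that left out 1 array. Skeletal muscle markers (4 of 4 higher, sum 6651 to 6989 in ERKO PPT and 296.5 to 296.6 in ERKO oil) and squamous markers (2 of 4 higher, sum 2960.2 to 3157 and 161 to 183 in the same order) moved in this comparison. So did the zone markers: the periportal sum was 10858 to 10976 in ERKO PPT and 15769 to 17785 in ERKO oil (4 of 4 lower), and the pericentral sum 20770 to 20897 and 23464 to 29379 (3 of 6 lower). Kupffer cell markers summed to 6251 to 6348 in ERKO PPT and 7036 to 7733 in ERKO oil (4 of 6 lower), and neutrophil markers to 1039 to 1073 in ERKO PPT and 1446 to 1907 in ERKO oil (3 of 4 tested lower). Their part in the ERKO responses was not tested, and none of these markers was at 0 on any array.

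**Figure D3:**
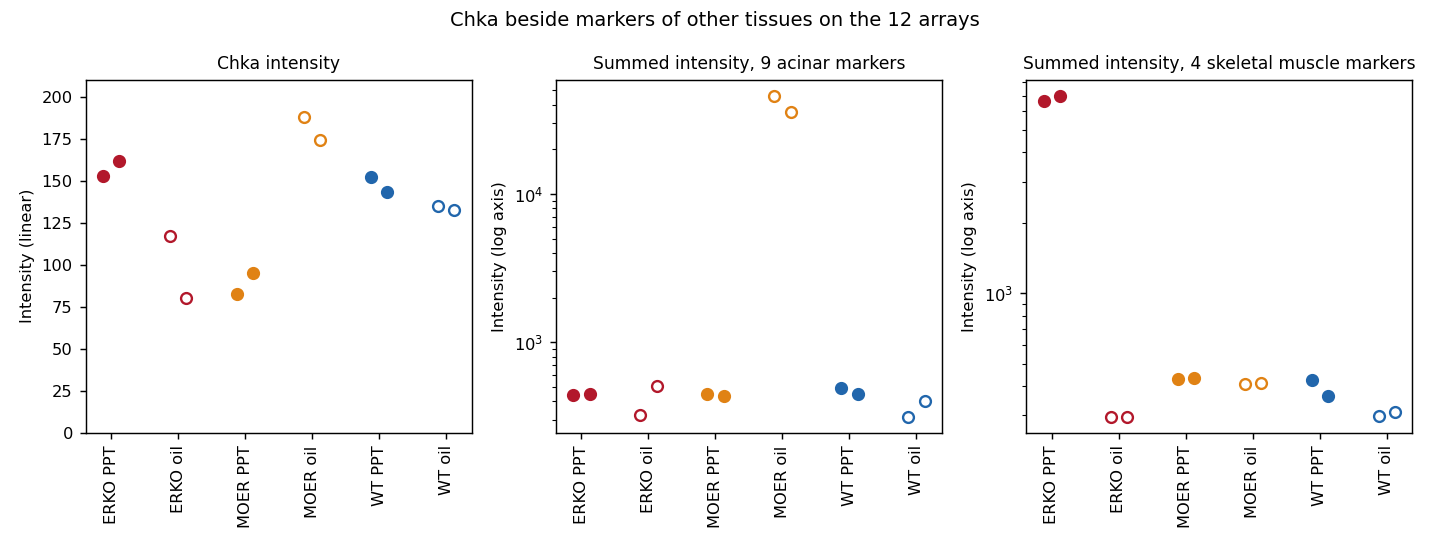
Chka intensity (left, linear axis), the summed intensity of 9 pancreatic acinar markers (middle, log axis) and of 4 skeletal muscle markers (right, log axis) on each of the 12 arrays, filled for PPT and open for oil. Chka was highest in MOER oil (188 and 174), the group with acinar sums of 35997 to 46055, and the muscle sum was highest in ERKO PPT.

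Differences between the responses were tested directly, and the 3 tests share arrays with one another, since each genotype enters 2 of them. The response in MOER differed from that in wild type for 6 of the 10 genes, where 21.6% of probe sets were called, 11.1% higher and 10.5% lower. It was less negative for Mat1a (difference 1.58 ± 0.15, adjusted p = 2.78e-05), Gnmt (1.32 ± 0.15, adjusted p = 1.07e-04), Pctp (1.00 ± 0.13, adjusted p = 2.36e-04), Chdh (0.96 ± 0.14, adjusted p = 5.86e-04) and Lpcat3 (0.63 ± 0.13, adjusted p = 0.0054). It was more negative for Chka (-1.04 ± 0.20, adjusted p = 0.00299). All 6 differences use the MOER oil arrays with their acinar markers. For Pcyt2 the difference was 0.28, with a 95% interval of -0.03 to 0.60. Bhmt (-0.53, interval -0.92 to -0.14), Pcyt1a (-0.46, -0.87 to -0.05) and Pemt (-0.21, -0.52 to 0.10) were not called after adjustment either.

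The response in MOER differed from that in ERKO for 3 of the 10 genes, where 11.5% of probe sets were called, 5.88% higher and 5.59% lower. Mat1a (0.70 ± 0.15, adjusted p = 0.0131) and Lpcat3 (0.48 ± 0.13, adjusted p = 0.0391) had the higher change in MOER, and Chka had the lower (-1.53 ± 0.20, adjusted p = 6.97e-04). Pctp, which fell in both, differed by 0.39 with a 95% interval of 0.11 to 0.67 before adjustment (adjusted p = 0.077). Bhmt (-0.46, interval -0.86 to -0.07) and Chdh (0.33, 0.02 to 0.64) were likewise not called after adjustment. Pemt (0.30), Pcyt2 (0.30), Pcyt1a (0.25) and Gnmt (0.22) were not called. The count was 1 without ERKO PPT replicate 2, MOER oil replicate 2 or MOER PPT replicate 2, and 6 without ERKO oil replicate 2, a fit that called 3407 of all probe sets, against 2193. Lpcat3 lost its call in 10 of the 12 fits that left out 1 array. The comparison uses the MOER oil arrays with their acinar markers and the ERKO PPT arrays with their skeletal muscle and squamous markers. The part of these markers was not tested.

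The response in wild type differed from that in ERKO for 6 of the 10 genes, where 22.3% of all probe sets tested were called, 10.3% higher (1975 probe sets) and 2291 probe sets lower. The fall was larger in wild type for Gnmt (-1.10 ± 0.15, adjusted p = 4.2e-04), Mat1a (-0.88 ± 0.15, adjusted p = 0.00152), Chdh (-0.62 ± 0.14, adjusted p = 0.00865) and Pctp (-0.61 ± 0.13, adjusted p = 0.00583). Pcyt1a (0.71 ± 0.18, adjusted p = 0.0181) and Pemt (0.51 ± 0.14, adjusted p = 0.0239) had a higher change in wild type than in ERKO. For Pcyt2 the falls differed by 0.01 with a 95% interval of -0.30 to 0.33, and for Lpcat3 by -0.15 with an interval of -0.44 to 0.14. Chka (-0.49, interval -0.92 to -0.06) and Bhmt (0.07, -0.32 to 0.46) were not called after adjustment either. Pemt's difference was lost in 6 and Pcyt1a's in 5 of the 12 fits that left out 1 array. Marker responses differed in the same test. Skeletal muscle (4 of 4), squamous (2 of 4) and stellate cell markers (4 of 6) were lower in wild type minus ERKO. Neutrophil (4 of 4 tested) and Kupffer cell markers (3 of 6) were higher. Pericentral markers were 1 higher and 4 lower of 6, and periportal markers 1 higher and 2 lower of 4. Their part in the differences was not tested.

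Among the 10 genes, Pctp alone was called between genotypes under oil in all 3 comparisons. It read 284 and 251 in ERKO oil, 582 and 569 in MOER oil and 1233 and 1225 in wild-type oil. ERKO was 4.4-fold lower than wild type (-2.14 ± 0.090, adjusted p = 5.12e-07), MOER 2.11-fold lower than wild type (-1.07 ± 0.090, adjusted p = 5.56e-05) and MOER 2.09-fold higher than ERKO (1.06 ± 0.090, adjusted p = 1.31e-04). Of all probe sets, 5.01% were called in ERKO against wild type (2.24% higher and 2.77% lower), 5.66% in MOER against wild type (2.13% and 3.53%) and 2.05% in MOER against ERKO (0.894% and 1.16%). Neutrophil markers were higher in both mutants (4 of 4 each), with sums of 1446 to 1907 in ERKO oil, 738 to 850 in MOER oil and 147 to 188 in wild-type oil. Acinar markers were higher in MOER oil than in wild-type oil and ERKO oil (9 of 9 each). The part of either set in the Pctp differences was not tested. Its 6 groups thus ran from ERKO PPT (137 ± 5.78, mean ± SD, n = 2) through ERKO oil (268 ± 23.2), MOER PPT (402 ± 15), wild-type PPT (425 ± 13.9) and MOER oil (575 ± 9.29) to wild-type oil (1229 ± 6.2). MOER PPT (391 and 413) and wild-type PPT (435 and 415) were neighbours within about their spread, and were not tested against each other.

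Chka was the other gene called under oil, 1.75-fold higher in MOER than in ERKO (0.80 ± 0.14, adjusted p = 0.0143), with the acinar markers high in MOER oil (9 of 9 higher). It lost that call without either MOER oil array. Of the methyl-group enzymes, Mat1a and Gnmt began near one level: Mat1a under oil differed from wild type by 0.00020 in ERKO (95% interval -0.23 to 0.23) and 0.13 in MOER (-0.09 to 0.36), and Gnmt by -0.08 in ERKO (-0.31 to 0.16) and 0.05 in MOER (-0.19 to 0.28). Chdh in ERKO differed from wild type by -0.37 (adjusted p = 0.0598). Bhmt was 0.40 higher in MOER oil than in ERKO oil (95% interval 0.12 to 0.68 before adjustment, limma adjusted p = 0.147). Without ERKO oil replicate 1 the count for ERKO against wild type was 6 of 10, all lower (Pctp, Chka, Pcyt2, Bhmt, Chdh and Lpcat3), in a fit that called 6329 of all probe sets, against 957 with all arrays. Without either ERKO oil array the count for MOER against wild type was 4 of 10, with 3332 of all probe sets called, against 1082 with all arrays.

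A list of 47 further genes of the same pathways was set beside the 10. Of these 39 were tested, 2 (Pcyt1b and Mboat2) were below the filter, and the others were not analysed here. In wild type 16 of 39 fell and 6 rose with PPT, with a median of -0.16 beside 0.02 for all probe sets, of which 31.0% were called. In MOER 2 fell and 1 rose, where 4.66% of all probe sets were called, and in ERKO 11 fell and 1 rose, where 17.9% were. The ERKO and MOER counts rose or fell depending on which single array was left out, as did the counts over all probe sets, so they rest on few arrays.

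**Figure D4:**
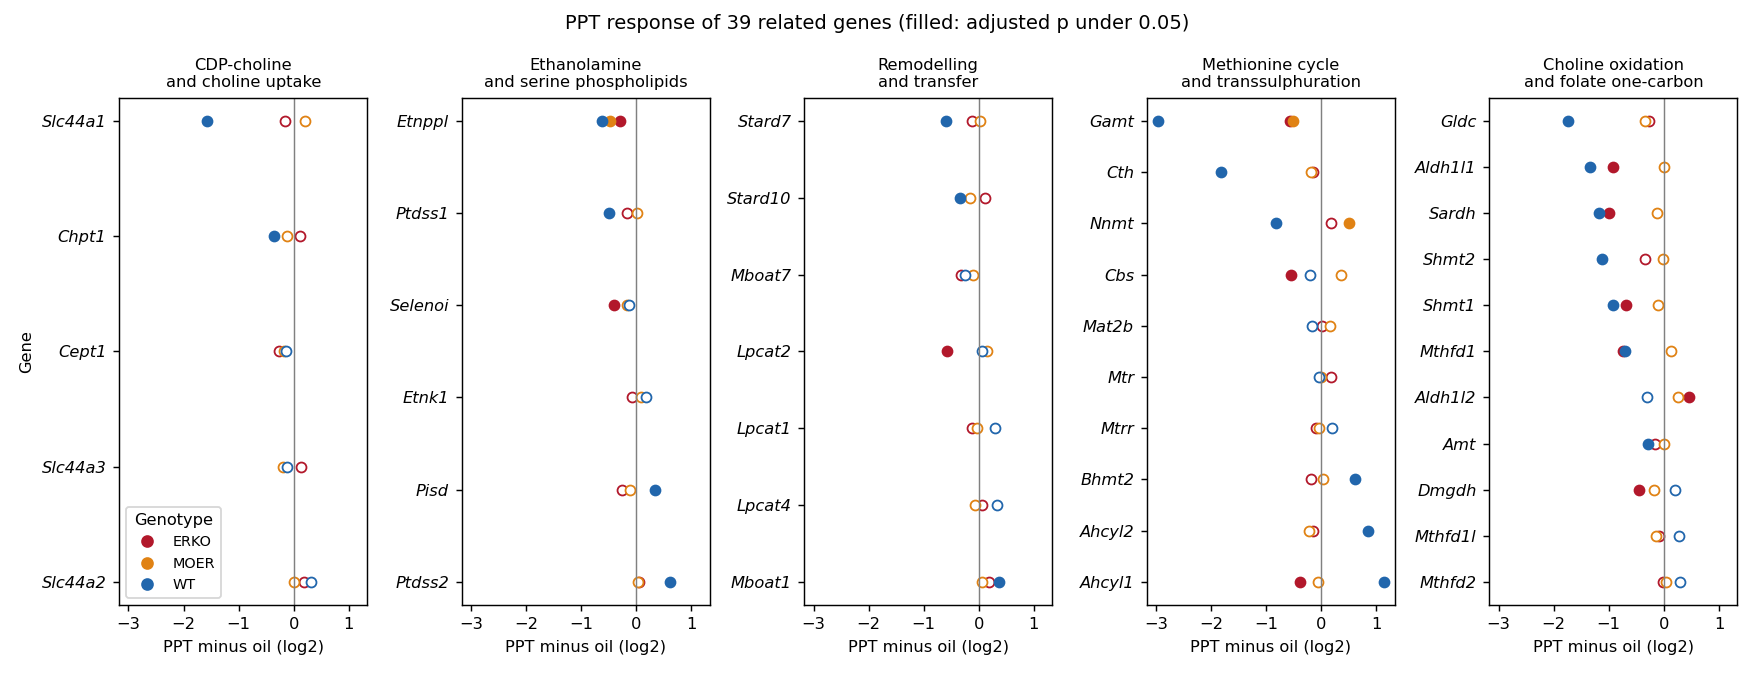
PPT minus oil on the log2(intensity + 16) scale (x axis) for 39 related genes in 5 groups (one panel each, genes on the y axis, ordered by the wild-type value). Colours mark ERKO, MOER and wild type (WT), and filled points passed an adjusted p of 0.05. The wild-type points of Gamt (-2.96), Cth (-1.82) and Gldc (-1.74) lie furthest below 0.

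The 3 steepest falls in wild type were those of Gamt, Cth and Gldc. Gamt, guanidinoacetate methyltransferase, which makes creatine and is a large consumer of S-adenosylmethionine, averaged 123.5 ± 12.2 with PPT and 1071 ± 1.22 with oil (-2.96 ± 0.11, adjusted p = 1.66e-08). Cth, cystathionine gamma-lyase of the transsulphuration route, averaged 2419 ± 66.1 with PPT and 8597 ± 228 with oil (-1.82 ± 0.10). Slc44a1, a choline transporter, averaged 200.1 ± 18.4 with PPT and 625 ± 28.8 with oil (-1.57 ± 0.12). In the choline oxidation and folate group 0 of 11 rose and 7 fell, where 14.8% of all probe sets were called higher and 16.2% lower. Those that fell included Gldc, the glycine decarboxylase of the glycine cleavage system (-1.74 ± 0.12), and the folate enzymes Aldh1l1 (-1.34 ± 0.089) and Shmt2 (-1.13 ± 0.13). Sardh, which oxidises the sarcosine that Gnmt makes, also fell (-1.17 ± 0.091).

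In the methionine cycle group 3 of 10 rose and 3 fell in wild type. The risers were Ahcyl1 (1.13 ± 0.096) and Ahcyl2 (0.85 ± 0.097), relatives of the S-adenosylhomocysteine hydrolase, and Bhmt2 (0.62 ± 0.091), a methyltransferase related to Bhmt, named after its value was seen. Ahcyl1 averaged 2009 ± 52.1 in wild-type PPT and 908 ± 23.9 in wild-type oil, and its response differed from that in MOER (MOER minus wild type -1.19 ± 0.14, adjusted p = 1.08e-04) and in ERKO (wild type minus ERKO 1.52 ± 0.14, adjusted p = 2.17e-05). Of the ethanolamine and serine group 2 rose and 2 fell of 6, of the remodelling and transfer group 1 rose and 2 fell of 7, and of the CDP-choline and choline uptake group 0 rose and 2 fell of 5. Over all probe sets 31.0% were called in wild type, 14.8% higher and 16.2% lower. These small groups were not tested against that share.

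In MOER the 3 genes called, none of which kept its call in every fit that left out 1 array, were Etnppl, an ethanolamine-phosphate phospho-lyase (-0.47 ± 0.079, adjusted p = 0.00576), Gamt (-0.51 ± 0.11, adjusted p = 0.0234) and Nnmt, nicotinamide N-methyltransferase, another consumer of S-adenosylmethionine, which rose (0.51 ± 0.096, adjusted p = 0.0115). Nnmt averaged 4818 ± 116 in MOER PPT and 3381 ± 68.5 in MOER oil, whereas in wild type it averaged 1425 ± 37.6 with PPT and 2526 ± 93.2 with oil, and the responses differed by 1.33 ± 0.14 (adjusted p = 5.07e-05). In ERKO the smallest p-values belonged to Sardh (1013 ± 72.5 in ERKO PPT and 2044 ± 148 in ERKO oil), Aldh1l1 (-0.93 ± 0.089), Mthfd1 (-0.74 ± 0.083) and Shmt1 (-0.69 ± 0.088), all of sarcosine or folate metabolism. The MOER responses of these 4 were each higher than the ERKO ones (differences 0.87, 0.93, 0.88 and 0.59). The 4 were picked by their ERKO falls, which enter these differences, so the shared direction is no separate result. Of the 39 genes, 6 were called higher and 0 lower for MOER minus ERKO responses. Over all probe sets 5.88% were called higher and 5.59% lower. Under oil 3 of the 39 were called in ERKO against wild type, 4 in MOER against wild type and 1 in MOER against ERKO, where 5.01%, 5.66% and 2.05% of all probe sets were called. All 3 counts rose or fell depending on which single array was left out, and so did the counts over all probe sets. They rest on few arrays.

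The 3 genes of widest range were matched to the genes whose levels followed them most closely over the 12 arrays, as a description, since the arrays fall into 6 groups. Pctp, with group means spanning 3.02 log2 units, was most like Cluh (Pearson's r = 0.975), Gpd1 (0.954) and Pxn (0.95) among 13986 genes. Mat1a, with a span of 1.71, was most like Prnp (0.994), Cps1 (0.992), the first enzyme of the urea cycle, and Rabggta (0.991). Gnmt, with a span of 1.62, was most like Fads1 (0.994), a fatty acid desaturase, Sult1a1 (0.992) and Pecr (0.991), and correlated with Mat1a at 0.966.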

How the data were processed

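The authors deposited 1 table of linear intensities, 1 value per probe set and array, from Affymetrix Mouse Gene 1.0 ST arrays of pooled liver RNA (array and pooling per the labels' protocols). The sources used here do not say how probes were summarised or arrays normalised, and the values were not normalised again. No detection calls or scanner files were used, so the number of arrays limits the precision. The platform annotation gave 1 symbol for 21780 of 28815 probe sets, several for 1605 and none for 5430.

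From the deposited intensities, log2(intensity + 16) was computed, a probe set was kept if at least 2 arrays put it past their own 40th percentile (53.576 to 60.98), which left 19119, and 6 group means were fitted in limma 3.58.1 (R 4.3.3; lmFit, eBayes; 6 residual and 10.47 total degrees of freedom). The 9 contrasts were adjusted by Benjamini-Hochberg, two-sided. Simulated arrays checked the script. The 10 genes and all lists were chosen with earlier results of these data known. All 10 are named for each PPT response and each difference between responses. Under oil, members that were not called are named only in part. Related genes are named when called with a log2 difference of at least 1 in a contrast, or by smallest p, unless stated otherwise. Same-numbered arrays were not treated as pairs: their deviations correlated above 0.1 in 5 of 15 pairs of groups (-0.15 to 0.38). Per the labels the authors used Cyber-T at 99.99% confidence with a 2-fold minimum, which was run as an alternative. Promoter sequences are from RefSeq, GRCm38.p6, with matched symbols for 8 members.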

Additional observations from a re-analysis of the deposited data

Results flagged for a closer look

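In 15 cases the PPT response of a gene differed between 2 genotypes by the test of the difference itself (limma, adjusted p under 0.05, 2 arrays a group). MOER minus wild type gave 1.58 for Mat1a, 1.32 for Gnmt, 1.00 for Pctp, 0.96 for Chdh, 0.63 for Lpcat3 and -1.04 for Chka on the log2 scale. MOER minus ERKO gave 0.70 for Mat1a, 0.48 for Lpcat3 and -1.53 for Chka. Wild type minus ERKO gave -1.10 for Gnmt, -0.88 for Mat1a, -0.62 for Chdh, -0.61 for Pctp, 0.71 for Pcyt1a and 0.51 for Pemt. All the MOER values, not only those of Chka, use the MOER oil arrays. Their acinar marker sums were 35997 to 46055, against 431 to 447 in MOER PPT, and the part of these markers in any of the differences was not tested. All the ERKO values use the ERKO PPT arrays with their high skeletal muscle and squamous markers, whose part was not tested either. Groups of 2 arrays are too small for a check of single arrays that lie apart.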

How the results depend on the processing

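Of 2120 alternative values of single genes (90 gene-by-comparison results), 2001 kept their direction and side of the threshold, 61 lost a call, 58 gained one and 0 called values changed sign. With each array left out in turn, the number of the 10 genes called ranged from 5 to 7 for PPT in wild type, 1 to 2 in MOER, 3 to 8 in ERKO, 4 to 7 for wild type minus ERKO, 1 to 6 for MOER minus ERKO, 6 to 7 for MOER minus wild type, and, under oil, 1 to 6 for ERKO minus wild type, 1 to 4 for MOER minus wild type and 1 to 3 for MOER minus ERKO. ERKO minus wild type under oil gave 2 with 64 added, with the 60th percentile as filter and with a variance trend. MOER minus ERKO responses gave 7 with quantile normalisation, 5 with the trend and 1 with only the groups compared, which has fewer arrays. Fitting only the groups compared also gave 1 for PPT in ERKO and 1 for MOER minus ERKO under oil. Leaving out both ERKO oil arrays, chosen after seeing the data, gave 4 for MOER minus wild type under oil. In the Cyber-T-style test at 99.99% with the 2-fold minimum, PPT in wild type gave 3 (Pctp, Gnmt and Mat1a), PPT in MOER 0, PPT in ERKO 0 and MOER minus ERKO under oil 1 (Pctp). Beside those zeros the same test adjusted by Benjamini-Hochberg gave 4 in MOER and 7 in ERKO (2401 and 2615 of all 19119 probe sets), and limma 2 and 7 (890 and 3430). At 99.99% alone it gave 1 for PPT in ERKO and 1 for MOER minus ERKO under oil, and adjusted it gave 5 for MOER minus wild type under oil, where it called 5712 of all probe sets. With the replicate block the counts were 6, 2 and 8 for PPT in wild type, MOER and ERKO; Pcyt1a in ERKO gained a call (adjusted p = 0.0445) and no other of the 90 results changed its call. Each cause was not tested. With Bhmt's dimmest probe set in place of its brightest, 8 genes were called for PPT in ERKO, 4 for MOER minus ERKO responses and 7 for MOER minus wild type responses. Over all probe sets, quantile normalisation called 1470 for PPT in MOER, against 890, 3500 for MOER minus ERKO responses, against 2193, and under oil 1673 for ERKO minus wild type, against 957, and 813 for MOER minus ERKO, against 392. Without the filter the oil counts were 552, 696 (MOER minus wild type, against 1082) and 236, and with only the groups compared PPT in ERKO called 576, against 3430. Of the 39 related genes, quantile normalisation called 5 for PPT in MOER, against 3, and only the groups compared 3 for PPT in ERKO, against 12. No scaling moved the median of all probe sets by over 0.1.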

Other observations

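The symbol Bhmt stood on 3 probe sets. The 2 brightest, 10511886 and 10457114, gave PPT responses of 0.28 and 0.29 in wild type, whereas the dimmer 10411142 gave 0.14. In ERKO the dimmer probe set was called higher with PPT, at 3566 and 3654 in ERKO PPT and 2938 and 2807 in ERKO oil (0.33 ± 0.091, limma adjusted p = 0.0322), while the brightest read 0.21 without passing the test. Which copies or parts of the gene the 3 probe sets read was not tested.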
